A study of Homo sapiens with 11 samples.

Results

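U2OS osteosarcoma cells given the microtubule drug paclitaxel were compared with U2OS cells given its solvent, DMSO. The comparison uses 2 of the 11 RNA-seq libraries of the series, chosen by their titles, which name the cell line and the treatment. The paclitaxel library came from cells exposed to 0.2 µM for 8 h, a dose that the submitters set as the IC50 of a longer exposure. The DMSO library is labelled as the U2OS control, and its labels give no duration. Both came from sub-confluent dishes grown in DMEM with fetal bovine serum, and each was made from total RNA. U2OS is an established line grown from a human osteosarcoma. For reference, MDA-MB231 cells, a basal-type breast cancer line, had 1 library with the same paclitaxel dose and time and 2 DMSO libraries. Replicate 1 of these carries the same form of title as the paclitaxel library and serves as its control. In U2OS the remaining 3 libraries had 8 h of doxorubicin (1 µM), etoposide (20 µM) or methyl methanesulfonate (MMS, 40 µg/mL).

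With 1 library a side there is no spread between replicates, so no test was made and no difference below has a replicate check. Levels are given as CPM, the reads of a gene scaled to a common library size after TMM normalisation. A difference is the log2 ratio of CPM, paclitaxel over DMSO, with 0.5 CPM added to each level. A log2 ratio of 0.58 is 1.5-fold. Because most differences were smaller, a small step is used as well, a ratio at least 25% higher or at least 20% lower than with DMSO (0.32 on the log2 scale in either direction). Intervals are exact Clopper-Pearson 95% intervals of the ratio without the added 0.5 and cover counting error only. A gene is called well counted where the larger of the 2 CPM values was at least 10, which held for 10059 of 23228 genes.

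Paclitaxel binds beta-tubulin inside the microtubule and stops it from shrinking. Cells that enter mitosis with such microtubules build faulty spindles, the spindle checkpoint keeps the anaphase-promoting complex off, and cyclin B and other mitotic proteins persist. Cells also adjust tubulin mRNA to free tubulin: when unassembled dimers are abundant, ribosomes that are making tubulin are recognised and their mRNA is degraded, and when dimers are locked into microtubules the mRNA lasts longer. Genes of mitosis and genes of DNA replication are transcribed at different times of the cell cycle, so their levels in a culture follow how its cells are spread over the cycle. A bulk library cannot tell a larger share of cells in a phase from more RNA per cell.

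Gene counts summed to 18959126 in the U2OS DMSO library and 22213736 in the paclitaxel library, within the 16774156 to 31588683 of all 11 libraries. Reads aligned to several places took 32.7% of all reads tabulated in both U2OS libraries. The cell identity was read from fixed marker lists. Of 17 osteoblast and mesenchymal markers, 10 were well counted, and their summed level was 3943 CPM with DMSO and 3655 CPM with paclitaxel. They included the matrix protein gene SPARC (956 and 850 CPM), the cadherin gene CDH2 (168 and 149 CPM) and RUNX2, the osteoblast transcription factor (23.8 and 24.2 CPM). The late osteoblast genes BGLAP, IBSP and SP7 had 0 reads in both libraries, which allows up to 0.157 CPM with DMSO and 0.131 CPM with paclitaxel (3 reads), and the collagen gene COL1A2 had 0 and 1. Of 14 epithelial markers 4 were well counted, the keratin genes KRT7, KRT8 and KRT18 and the claudin gene CLDN4, the list summed to 1292 and 1145 CPM, and EPCAM lay at 3.35 and 3.31 CPM. Of 12 blood and immune cell markers 1 was well counted, the lysosomal gene CD68, and the list summed to 24.2 and 24.9 CPM. The leukocyte marker PTPRC had 5 and 9 reads. The 6 endothelial markers summed to 1.99 and 1.66 CPM.

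With paclitaxel most genes of U2OS lay close to their level with DMSO. The log2 ratios of the 10059 well counted genes had a median of -0.03, and 5% lay below -0.27 and 5% above 0.27. Only 59 genes (0.587%) were 1.5-fold or more higher and 17 (0.169%) 1.5-fold or more lower, 76 in all (0.756%). At 2-fold or more there were 5 genes (0.0497%), all of them higher. Past the small step 348 genes (3.46%) were higher and 283 (2.81%) lower, and 40.5% of all well counted genes lay above 0. The size of these differences can be set beside the only libraries that share a treatment label. The MDA-MB231 DMSO libraries lay 1.5-fold or more apart in 590 of 9776 genes (6.04%), with 2.81% higher and 3.22% lower in replicate 2, and 2-fold or more in 1.16%. Paclitaxel against DMSO replicate 1 in that line gave 169 of 9770 (1.73%) at 1.5-fold and 0.338% at 2-fold. Over genes, chi-square per degree of freedom was 10.6 for the U2OS pair, 21.9 for MDA-MB231 paclitaxel against DMSO replicate 1 and 36.2 for the DMSO libraries of MDA-MB231. The U2OS pair was therefore closer together than the vehicle libraries of the other line, and single genes past a fold carry that limit. The DMSO libraries of MDA-MB231 differ in their title form, and 1 of them names 8 h. The counting intervals of 4301 U2OS genes left out 0.

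**Figure D1:**
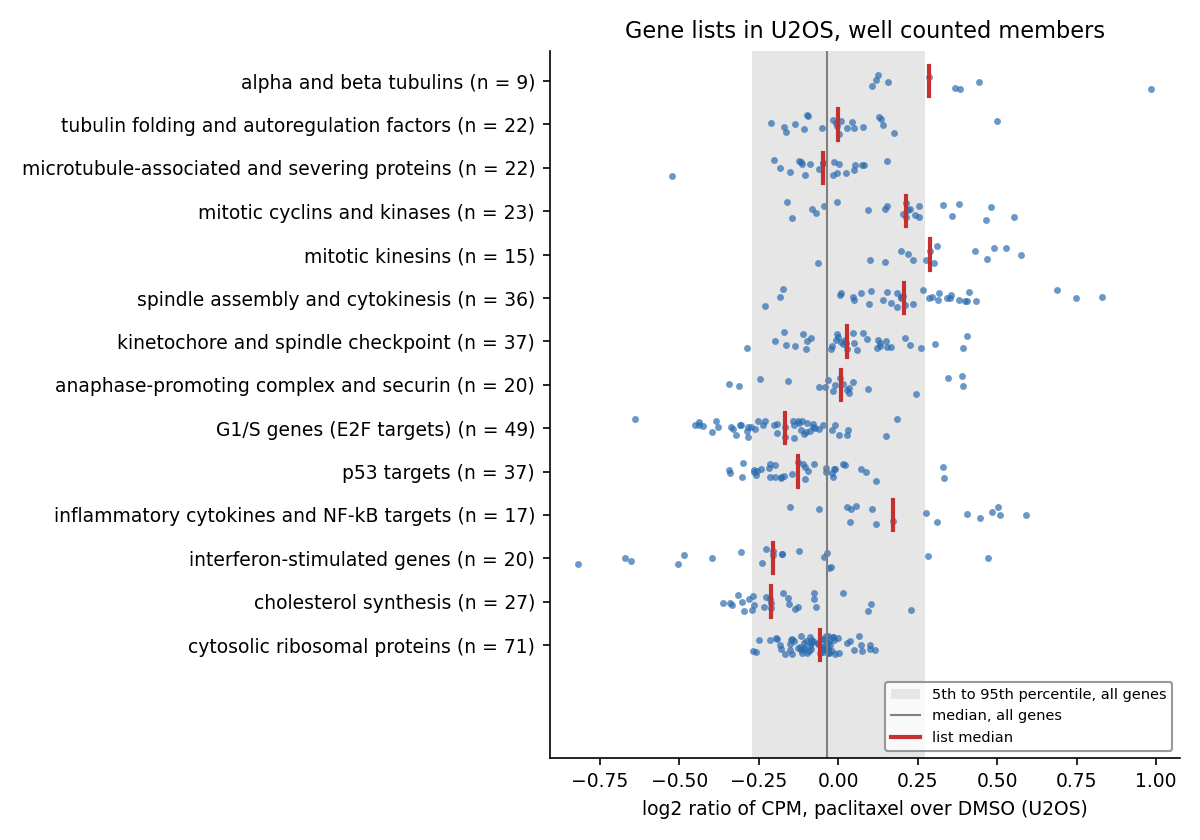
Each point is a well counted gene of a list, placed on the x axis by its log2 ratio of CPM in U2OS, paclitaxel over DMSO (1 library each). Rows are the lists with the number of genes in brackets, red bars are list medians, the grey line is the median of all 10059 well counted genes and the grey band runs from their 5th to their 95th percentile. The tubulins, mitotic kinesins, mitotic cyclins and kinases and spindle genes have medians of 0.29, 0.29, 0.21 and 0.21, and the G1/S, interferon-stimulated and cholesterol synthesis lists have medians of -0.17, -0.20 and -0.21.

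The tubulins, the subunits of the drug's target, were higher with paclitaxel. All 9 well counted alpha- and beta-tubulin genes had ratios above 0, against 40.5% of all well counted genes, and the intervals of all 9 lay above 0. The median was 0.29, 4 of 9 were higher past the small step (3.46% of all genes) and none was lower. TUBA1A, an alpha-tubulin known for its role in neurons, had 984 reads (51.6 CPM) with DMSO and 2351 reads (102 CPM) with paclitaxel. This was a log2 ratio of 0.98 (interval 0.88 to 1.10), and TUBA1A was the only tubulin past 1.5-fold. TUBB3, a beta-tubulin of neurons and of many tumours, went from 80.8 to 110 CPM (0.44). TUBA4A stood at 131 and 172 CPM (0.38), TUBB2C, the gene now called TUBB4B, at 683 and 881 CPM (0.37) and TUBB6 at 678 and 826 CPM (0.29).

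The other 4 well counted tubulins moved less. TUBB, a beta-tubulin of nearly all cells, had 44299 reads (2321 CPM) with DMSO and 59358 reads (2588 CPM) with paclitaxel, a log2 ratio of 0.16 (0.14 to 0.17). The alpha-tubulin genes TUBA1C (666 and 726 CPM, 0.13), TUBA3C (153 and 167 CPM, 0.12) and TUBA1B (1020 and 1097 CPM, 0.10) followed. Summed over the whole list of 17 genes, tubulin took 5804 CPM with DMSO and 6692 CPM with paclitaxel. Under 10 CPM, TUBB4 went from 70 to 118 reads (0.44, interval 0.05 to 0.94) and TUBB2A from 154 to 224 reads (0.26), while the intervals of TUBB2A, TUBB2B (0.18), TUBB1 (-0.14) and TUBA3E (-0.04) held 0. Tubulin genes share long stretches of sequence, and reads that fit several places went uncounted, so the split between copies is uncertain. Scaled to total counts instead, TUBA1A was at 1.02 and the tubulin median at 0.31.

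**Figure D2:**
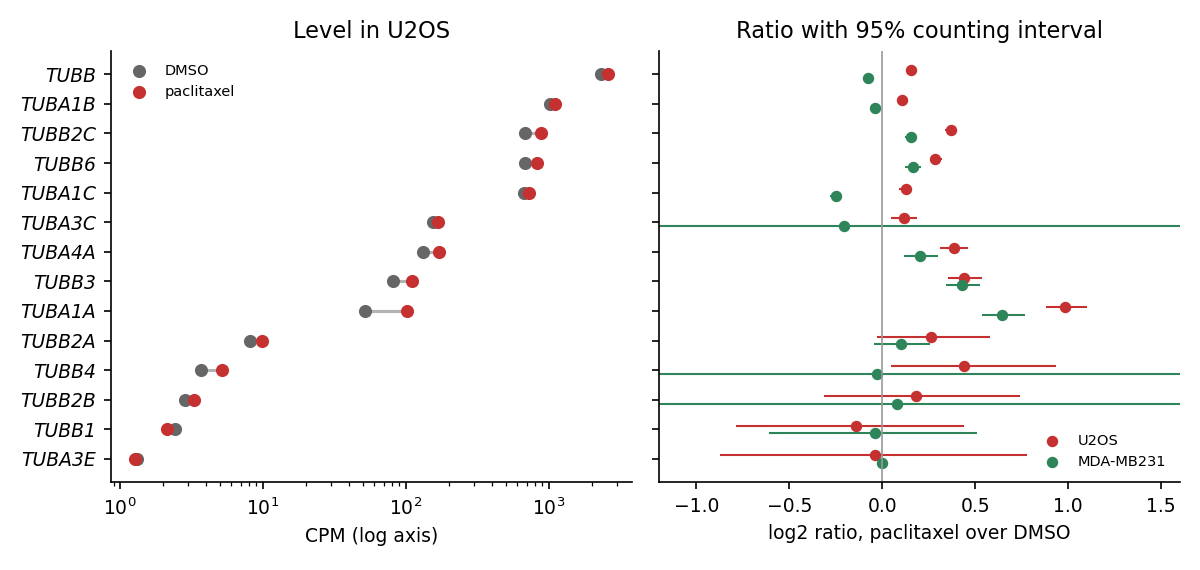
Left, levels of the 14 alpha- and beta-tubulin genes with a CPM of at least 1 in U2OS, with DMSO (grey) and paclitaxel (red), on a log axis. Right, their log2 ratios of CPM, paclitaxel over DMSO, with 95% counting intervals in U2OS (red) and MDA-MB231 (green, DMSO replicate 1), where intervals that run past the axis are clipped. TUBA1A stands apart in both lines, at 0.98 and 0.64.

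Genes that make, modify or bind tubulin did not share this shift. The 22 well counted folding and autoregulation factors had a median of 0.00, with 11 above and 11 below 0. TTC5, which recognises nascent tubulin in the mRNA decay described above, lay at 19.3 and 18.1 CPM (-0.09, interval -0.30 to 0.11). ATAT1, the enzyme that acetylates alpha-tubulin, was the only one past the small step, at 9.22 and 13.3 CPM (0.50). The tubulin cofactor genes TBCA (-0.16), TBCB (-0.17) and TBCE (-0.21) lay below 0. Of 22 microtubule-associated and severing proteins 1 was past the small step, MAP1B, a neuronal microtubule binder, which was lower (185 to 129 CPM, -0.52). The destabiliser STMN1 stood at 614 and 588 CPM. Of 9 genes for gamma-, delta- and epsilon-tubulin and the gamma-tubulin ring complex, which nucleates microtubules, 7 lay below 0 (median -0.07), among them TUBG1 (-0.15). TUBGCP6 was higher (48.5 to 67.1 CPM, 0.46).

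The machinery that builds and drives the mitotic spindle was higher as a group. Of 15 mitotic kinesin genes, motor proteins that move chromosomes and slide spindle microtubules, 14 lay above 0 and 5 were higher past the small step, with a median of 0.29. KIF18B and KIF18A, which shorten or dampen microtubule plus ends, were at 0.57 (64.1 to 95.8 CPM) and 0.47 (76.9 to 107 CPM). KIF14 and KIF20A, motors of cytokinesis, were at 0.53 (84.3 to 122 CPM) and 0.49 (202 to 284 CPM). CENPE, the kinetochore motor, went from 3009 to 4873 reads (158 to 212 CPM, 0.43). The exception was KIF2A, a microtubule depolymeriser that also acts outside mitosis (124 and 119 CPM, -0.06).

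Mitotic cyclins and kinases gave a similar picture. Of 23 genes 17 lay above 0, 6 were higher past the small step and none lower, with a median of 0.21. PLK1, the kinase of spindle assembly and mitotic exit, had 3354 reads (176 CPM) with DMSO and 5926 (258 CPM) with paclitaxel, which is 147% of the DMSO level (0.55, interval 0.49 to 0.62). AURKA, the centrosomal Aurora kinase, stood at 232 and 324 CPM (0.48), and BORA, which activates it towards PLK1, at 24.7 and 34.2 CPM (0.46). The B-type cyclin genes CCNB1 (446 to 580 CPM, 0.38) and CCNB2 (148 to 190 CPM, 0.36) and the checkpoint kinase gene BUB1B (194 to 244 CPM, 0.33) completed the 6. CDK1, the kinase that cyclin B activates, was at 334 and 319 CPM (-0.07). The kinases that hold CDK1 inactive, WEE1 (-0.15) and PKMYT1 (-0.16), lay below 0.

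The list of 36 genes named for spindle assembly and cytokinesis also holds genes with other roles, such as PIF1 and TOP2A. Of the 36, 33 lay above 0, 11 were higher past the small step and 3 past 1.5-fold (0.587% of all genes). TROAP, a protein of the mitotic spindle also called tastin, was at 76.9 and 137 CPM (0.83, interval 0.75 to 0.93). PIF1, a DNA helicase whose transcript peaks late in the cycle, was at 28.5 and 48.2 CPM (0.75). C9orf140, now SAPCD2, a regulator of spindle orientation, was at 49.2 and 79.5 CPM (0.69). DEPDC1 (0.43), CKS2 (0.41) and TPX2, which activates AURKA on the spindle (580 to 768 CPM, 0.41), followed. The list median was 0.21. The 3 members below 0 were TOP2A, the topoisomerase that untangles sister chromatids (992 to 880 CPM, -0.17), KPNA2 (-0.18) and ARL6IP1 (-0.23).

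Kinetochore genes and the anaphase-promoting complex had medians nearer to that of all genes. Of 37 kinetochore and checkpoint genes, which attach chromosomes to microtubules, 23 lay above 0 (40.5% of all genes) and 2 were higher past the small step (3.46%), C15orf23, now called KNSTRN (0.40), and SGOL2, a protector of centromeric cohesion (0.39), with a median of 0.03. CENPA, the centromeric histone H3, was at 58.5 and 72.4 CPM (0.30), CENPF at 441 and 448 CPM (0.02) and DSN1 at -0.29. Of 20 anaphase-promoting complex genes and partners 11 lay above 0 and 3 were higher past the small step, with a median of 0.01. These 3 were CDC20, the activator that the checkpoint holds (273 to 358 CPM, 0.39), its ubiquitin-conjugating enzyme UBE2S (0.39) and separase, ESPL1 (0.35). C11orf51, now ANAPC15, was lower past the small step (-0.34), and FBXO5, an inhibitor of the complex made from the start of S phase, was at -0.31. Of 23 centrosome genes 16 lay above 0 (median 0.09), led by CNTROB (0.52).

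Genes of the G1/S transition pointed the other way. These encode the replication machinery and are activated by E2F factors at the start of S phase. Of 49 genes 44 lay below 0, 11 were lower past the small step (2.81% of all genes), none was higher, and the median was -0.17 beside -0.03 for all genes. CCNE2, a cyclin E that drives S phase entry, had 706 reads (37.0 CPM) with DMSO and 541 (23.6 CPM) with paclitaxel, a log2 ratio of -0.64 (interval -0.81 to -0.49), and was the only member past 1.5-fold. The replicative helicase genes MCM6 (169 to 124 CPM, -0.45) and MCM2 (229 to 176 CPM, -0.39), GINS2 of the same helicase (67.2 to 49.5 CPM, -0.44) and PCNA, the sliding clamp (315 to 234 CPM, -0.42), were lower. UNG, which removes uracil from DNA, was at 78.4 and 57.9 CPM (-0.44). CCNE1, the other cyclin E, was at -0.28 and E2F1 at -0.24. RRM2, a subunit of ribonucleotide reductase, moved little (-0.06), and POLE, the leading-strand polymerase gene, stood highest, at 0.19. All 6 well counted replication-dependent histone genes of 59 listed lay below 0 (median -0.19), with HIST1H2BD lowest (30.0 to 22.1 CPM, -0.43), although these near-identical genes are poorly resolved. In MDA-MB231 3 of 4 well counted histone genes lay above 0 (median 0.13), and between its DMSO libraries the median was -0.70.

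The promoters of both gene groups are printed because their transcription timing is tied to short DNA elements. The cell cycle homology region, TTTGAA, is the element by which mitotic genes are held off until late in the cycle, CCAAT boxes often accompany it, and TTGGCGC and TTCCCGC are among the forms of the E2F site. Each window below is the 120 bases just before the annotated start, 5′ to 3′ on the strand of the gene, from RefSeq on GRCh38.p14, a build other than the hg19 of the reads. Capitals mark matches to the elements searched, on either strand.
PLK1: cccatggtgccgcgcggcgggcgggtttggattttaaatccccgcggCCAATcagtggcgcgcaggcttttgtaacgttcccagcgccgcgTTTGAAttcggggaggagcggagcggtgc
CDC20: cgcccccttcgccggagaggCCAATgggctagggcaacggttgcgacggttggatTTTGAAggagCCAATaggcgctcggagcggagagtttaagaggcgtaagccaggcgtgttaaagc
PIF1: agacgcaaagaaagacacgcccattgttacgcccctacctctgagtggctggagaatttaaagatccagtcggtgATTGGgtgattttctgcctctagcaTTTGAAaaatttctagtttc
MCM6: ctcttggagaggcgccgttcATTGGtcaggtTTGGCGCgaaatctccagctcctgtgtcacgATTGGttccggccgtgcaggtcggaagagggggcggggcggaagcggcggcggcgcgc
PCNA: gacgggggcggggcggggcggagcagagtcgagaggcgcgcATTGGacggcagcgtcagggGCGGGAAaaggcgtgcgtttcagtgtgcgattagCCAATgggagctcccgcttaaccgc
GINS2: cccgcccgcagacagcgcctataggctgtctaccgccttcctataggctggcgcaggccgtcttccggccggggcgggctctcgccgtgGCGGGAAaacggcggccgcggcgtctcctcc
The windows lie at chr16:23678769-23678888 for PLK1 and chr1:43358861-43358980 for CDC20, both on the plus strand. Those on the minus strand lie at chr15:64825648-64825767 for PIF1, chr2:135876444-135876563 for MCM6, chr20:5126623-5126742 for PCNA and chr16:85688955-85689074 for GINS2. TTTGAA begins 29 bases before the start of PLK1, 65 before that of CDC20 and 20 before that of PIF1. The E2F letters begin 89 bases before the start of MCM6, 59 before that of PCNA and 31 before that of GINS2.

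Over the whole lists the letters were counted in promoters from 250 bases before to 50 after the start, on both strands, where TTGGCGC can overlap ATTGG, the reverse of a CCAAT box. The letters TTTGAA occurred in 15.4% of all 27305 promoters and in 9.37% of those of well counted genes. It occurred in 9 of 15 mitotic kinesin promoters, 80.0% of 30 promoters of spindle and cytokinesis genes (of 36 genes), 40.6% of 32 kinetochore promoters (of 38 genes) and 2.27% of 44 G1/S promoters (of 49 genes). The replication-dependent histones had TTTGAA in 46.3% of 54 promoters (of 59 genes), so these letters were not confined to the mitotic lists. The tubulin promoters held TTTGAA at 11.8%, where the older symbol TUBB4 was matched to the promoter of TUBB3, which was thus counted again. TTGGCGC or TTCCCGC occurred in 9.33% of all promoters, 15.9% of those of well counted genes, 70.5% of the G1/S promoters, 20.0% of the kinesin and 16.7% of the spindle promoters. The G1/S list is a list of E2F targets, so its share of E2F letters is not independent of how its genes were chosen. CCAAT was in 35.7% of all promoters, 80.0% of the spindle, 73.3% of the kinesin, 59.1% of the G1/S and 87.0% of the histone promoters. Kinesins with and without TTTGAA had median ratios of 0.28 and 0.30, and spindle genes 0.22 and 0.23. Of 15 mitotic cyclins and kinases with a promoter in the table (of 23 genes), the 7 with TTTGAA had a median of 0.33 and the 8 without it 0.23. Matches describe these windows and are no evidence of binding.

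The p53 pathway, which arrests damaged cells, was not higher. Of 37 p53 target genes 30 lay below 0, 2 were higher past the small step and 2 lower, with a median of -0.12. CDKN1A, the p21 inhibitor of cyclin-dependent kinases, was at 270 and 226 CPM (-0.25, interval -0.31 to -0.20), and MDM2, the ubiquitin ligase of p53, at 329 and 290 CPM (-0.18). PPM1D, a phosphatase that shuts p53 off, and CMBL were the lower genes (both -0.34). The kinase gene PLK3 (27.0 to 34.2 CPM, 0.33) and GDF15, a secreted stress cytokine (22.8 to 28.8 CPM, 0.33), were the higher ones. Among 8 CDK inhibitor genes CDKN2B, which blocks CDK4 and CDK6, was past 1.5-fold lower (45.1 to 27.4 CPM, -0.71). The 15 well counted genes of the BCL2 family, which decide over apoptosis, had a median of -0.09, and BMF alone passed the small step (26.2 to 20.2 CPM, -0.37).

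Inflammatory genes were higher. Of 17 cytokines and NF-kB targets 15 lay above 0, 6 were higher past the small step and none lower, with a median of 0.17. TNFAIP3, a feedback inhibitor of NF-kB, was at 36.6 and 55.4 CPM (0.59, interval 0.46 to 0.73). The cytokine genes IL11 (47.7 to 68.1 CPM, 0.51), IL8 (66.6 to 94.5 CPM, 0.50) and CXCL1 (45.1 to 59.9 CPM, 0.40) and the NF-kB subunit genes NFKB2 (51.3 to 71.9 CPM, 0.48) and RELB (0.45) made up the rest. IL6 was at 44.8 and 48.3 CPM (0.11, interval -0.02 to 0.24) and NFKBIA, the inhibitor of NF-kB, at -0.15. In the 24 well counted immediate early genes, 3 were higher past the small step and 3 lower, with a median of 0.00. EGR1 (28.7 to 41.4 CPM, 0.52) and DUSP1 (0.49) were higher and JUNB (-0.48), ATF3 (-0.36) and IER5 (-0.35) lower, and FOS, under 10 CPM, went from 74 to 155 reads (0.73).

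Interferon-stimulated genes, which carry antiviral defence, were lower. Of 20 genes 18 lay below 0, 6 were lower past the small step and 3 past 1.5-fold (0.169% of all genes), with a median of -0.20. OASL, a relative of the oligoadenylate synthetases, had 768 and 519 reads (40.2 to 22.6 CPM, -0.82, interval -0.99 to -0.67). IFIT1 (857 to 643 reads, -0.67) and IFIT2 (39.8 to 25.2 CPM, -0.65), which bind foreign or incompletely capped RNA, came next, followed by HERC5 (-0.50), IRF1 (-0.48) and IFIT3 (-0.40). STAT2, which carries the interferon signal, was higher (48.8 to 67.9 CPM, 0.47). All 3 of the 1.5-fold genes also lay below the DMSO level after each other drug in U2OS, by log2 ratios of -0.70, -2.81 and -1.39 for OASL after doxorubicin, etoposide and MMS. These 4 comparisons share the single U2OS DMSO library.

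The largest ratios belonged to other genes. MALAT1, a nuclear noncoding RNA of splicing speckles, had 2371 reads (124 CPM) with DMSO and 7271 (317 CPM) with paclitaxel, a log2 ratio of 1.35 (interval 1.28 to 1.42). NEAT1, the noncoding scaffold of paraspeckles, stood at 504 and 1192 CPM (1.24). PABPC1L, a poly(A)-binding protein, was at 10.9 and 27.1 CPM (1.28), GOLGA8A, one of several near-identical golgin genes, at 14.1 and 31.3 CPM (1.12), and CHI3L1, a secreted glycoprotein linked to inflammation, at 12.4 and 26.7 CPM (1.07). The next highest were MICAL1, an enzyme that takes actin filaments apart (0.99), TUBA1A, the cholesterol exporter gene ABCG1 (5.08 to 10.3 CPM, 0.96), PILRB (0.89), CCDC57 (0.86), TROAP, MEGF6 (0.82), the ETS factor gene ETV1 (0.82), DNHD1 (0.80) and MAMDC4 (0.79). At the other end stood MUC16, the CA125 mucin (11.1 to 5.80 CPM, -0.88), FAT4, a giant cadherin (18.7 to 10.0 CPM, -0.86), OASL, CDKN2B, ZFP37 (-0.70) and the ephrin gene EFNA1 (-0.69). PPP1R3C (-0.67), IFIT1, TNFAIP6 (-0.66), IFIT2, SERPINB5, a serpin of epithelia (1982 to 1516 reads, -0.65), SSTR1 (-0.64), CCNE2, MN1 (-0.64) and ZNF488 (-0.61) completed the lowest.

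Several library properties moved with the highest genes. Reads outside annotated genes took 8.40% with paclitaxel and 7.74% with DMSO. The 59 higher genes had a median transcript GC content of 56.8%, against 47.6% for all well counted genes and 44.6% for the 17 lower ones. Over all genes the median ratio went from -0.07 at a GC of up to 40% to 0.05 above 60%, and it was -0.12 for transcripts longer than 12000 bases. After centring the ratios on GC and length, 41 of the 59 and 14 of the 17 were still past 1.5-fold. Of the 59, 16 reached 10 CPM with paclitaxel only, as did 5 of the 17 with DMSO only. The 36 higher genes well counted in both DMSO libraries of MDA-MB231 had a median ratio of -0.44 between those libraries (replicate 2 over 1), 32 lay below 0, and 15 were past 1.5-fold either way. NEAT1 stood at -1.19 there and MALAT1 at -0.29, with no drug in either library. The 9 lower genes well counted there had a median of 0.37. The part of these properties in the U2OS ratios was not tested. The mitotic and G1/S lists leaned the same way between those libraries, by less. Above 0 there were 54.8% of all genes, 5 of 15 kinesins (median -0.10), 7 of 23 mitotic cyclins and kinases (-0.07), 12 of 36 spindle genes (-0.06) and 32 of 48 G1/S genes (0.06). The tubulin median was 0.05 there. Wider gaps between the DMSO libraries were those of the NF-kB list (-0.38), the histones (-0.70) and the integrated stress response list (0.37).

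**Figure D3:**
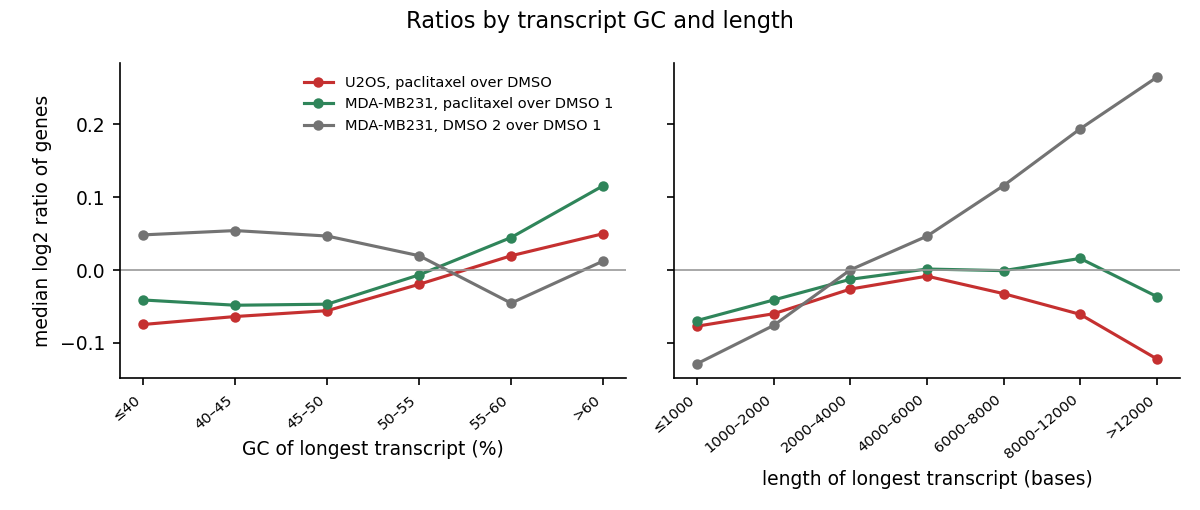
Median log2 ratio of well counted genes (y axis) in bins of the GC content (left, %) and length (right, bases) of their longest transcript. Lines are U2OS paclitaxel over DMSO (red), MDA-MB231 paclitaxel over DMSO replicate 1 (green) and MDA-MB231 DMSO replicate 2 over replicate 1 (grey). The U2OS medians run from -0.07 to 0.05 over GC and reach -0.12 in the longest transcripts, where the DMSO pair is at 0.26.

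The same dose and time in MDA-MB231 gave values with controls of their own. Of 9048 genes well counted in both lines, 63.1% had the same sign, and Pearson's r across these genes was 0.31, a description over genes measured in the same 4 libraries. The median ratio in MDA-MB231 was -0.04 at a transcript GC of up to 40% and 0.12 above 60%, beside -0.07 and 0.05 in U2OS. The part of GC in r was not tested. Above 0 lay 40.5% of all well counted genes in U2OS and 47.5% in MDA-MB231. Of U2OS genes past 1.5-fold and well counted in both, 31 of 38 higher and 4 of 7 lower kept their sign in MDA-MB231. The lower genes were thus near the share of all genes below 0 there. In that line 1.44% of genes were past 1.5-fold higher and 0.287% lower. Past 1.5-fold in both lines were 5 higher genes, 13.2% of the U2OS genes and 6.02% of the 83 in MDA-MB231. These were TUBA1A (0.98 in U2OS, 0.64 in MDA-MB231), TROAP (0.83 and 0.67), MEGF6 (0.82 and 0.67), ETV1 (0.82 and 0.63) and NAV2, a gene of cell migration (0.74 and 0.66). With DMSO replicate 2 as the MDA-MB231 control NAV2 was at 0.23, short of the small step. TUBA1A, TROAP, MEGF6 and ETV1 were at 1.05, 1.21, 1.46 and 0.75 against that library. CCNE2 was the lower gene past 1.5-fold in both (-0.64 and -0.81).

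The medians of the kinesins, the mitotic cyclins and kinases, the spindle genes and the G1/S genes lay on the same side of 0 in both lines. Those of the kinetochore list (0.03 in U2OS, -0.05 in MDA-MB231) and the anaphase-promoting complex list (0.01 and -0.05) did not. Against DMSO replicate 2 those lists were at 0.06 and 0.14, on the U2OS side of 0, so this gap depends on the control. Above 0 in MDA-MB231 were 14 of 15 kinesins, 18 of 23 mitotic cyclins and kinases, 29 of 36 spindle genes and 1 of 48 G1/S genes, against 47.5% of all genes there. Past the small step 5 kinesins and 10 spindle genes were higher (6.29% of all genes), and 17 G1/S genes and 1 spindle gene lower (3.47%). The MDA-MB231 medians were 0.22 for kinesins, 0.15 for mitotic cyclins and kinases, 0.20 for spindle genes and -0.28 for G1/S genes, and 0.42, 0.27, 0.32 and -0.37 against DMSO replicate 2. PLK1 was at 0.31, AURKA at 0.55, KIF20A at 0.43, CENPE at 0.33, CCNB1 at 0.35, MCM6 at -0.67 and PCNA at -0.34 in MDA-MB231. The tubulin median was 0.15 there (0.07 against replicate 2), with TUBA1A and TUBB3 (0.43) past the small step and TUBA1C at -0.25. Of 9 well counted tubulins 6 lay above 0 (5 against replicate 2). Unlike in U2OS, the summed tubulin level did not rise, at 5978 CPM with DMSO replicate 1 and 5874 CPM with paclitaxel. TUBA1A had 37.2 and 27.9 CPM in the DMSO libraries and 58.4 CPM with paclitaxel. Other values stood apart between the lines, and these gaps were not tested. The interferon list had a median of 0.09 in MDA-MB231 (-0.03 against replicate 2), with OASL at 0.12, IFIT1 at 0.08 and IFIT2 at 0.06. GDF15 was at 2.36 (14.8 to 78.0 CPM) beside 0.33 in U2OS. MALAT1 was at 0.38 and NEAT1 at 0.12, and PABPC1L at -0.16. Against replicate 2 they were at 0.68, 1.31 and 0.56, so the gaps of these genes between the lines depend on the control. The NF-kB list was at 0.26 but at 0.75 against replicate 2, and its median between the DMSO libraries was -0.38.

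**Figure D4:**
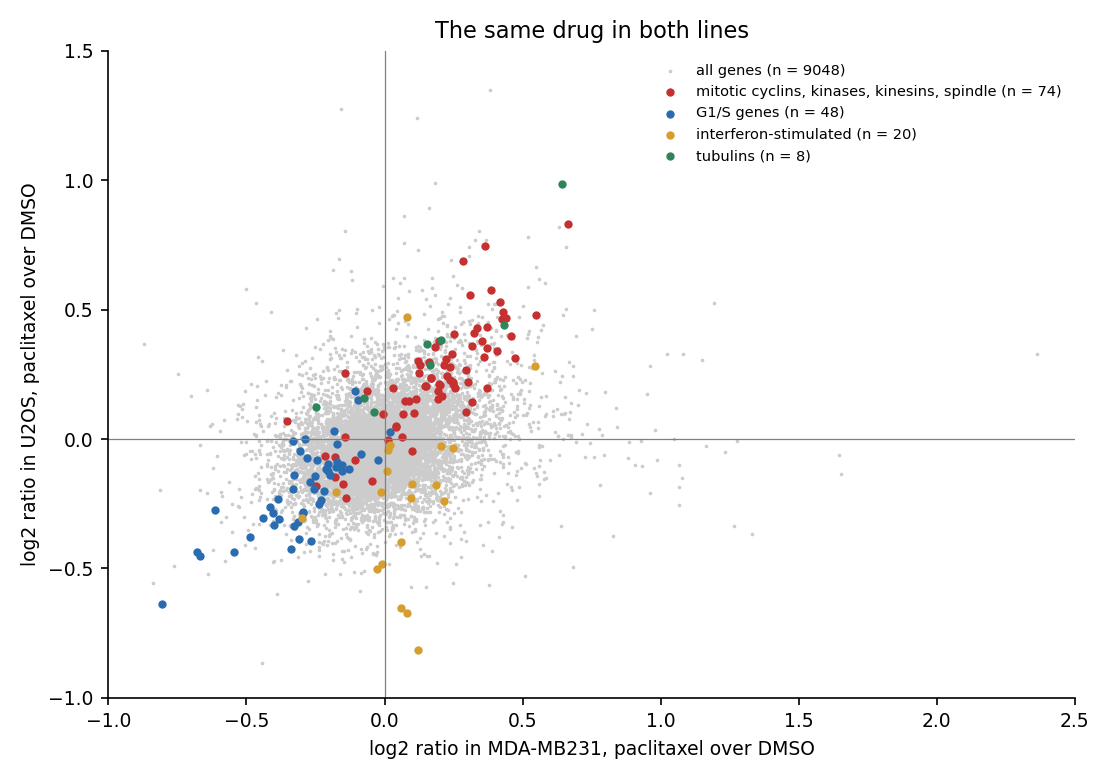
Log2 ratio of CPM, paclitaxel over DMSO, in MDA-MB231 (x axis, DMSO replicate 1) and in U2OS (y axis) for the 9048 genes well counted in both lines, with 4 groups of listed genes in colour. Most mitotic genes (red) lie above 0 in both lines and most G1/S genes (blue) below 0 in both, while OASL, IFIT1 and IFIT2 (yellow) have the lowest U2OS ratios of the coloured genes and lie at 0.12, 0.08 and 0.06 in MDA-MB231.

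Within U2OS the mitotic genes can be set beside the 3 DNA-damaging treatments, which share the DMSO library with paclitaxel, so only values are given. PLK1 was at 0.55 with paclitaxel, and at -2.30, -1.71 and -1.60 with doxorubicin, etoposide and MMS. CCNB1 was at 0.38, and at -2.19, -1.18 and -1.15 in the same order, and CENPE at 0.43, and at -3.07, -0.56 and -0.43. The kinesin medians were 0.29 with paclitaxel and -2.01, -0.53 and -0.37 with the others. TUBA1A stood at -0.16, 0.36 and -0.42 after the other drugs, TROAP at -0.02, -0.07 and 0.08, and CCNE2 at 0.26, 1.07 and 1.34. TUBB3, at 0.44 with paclitaxel, was higher after each other drug, at 1.23, 1.40 and 1.32. TUBB2C was at 0.37 with paclitaxel, and at -0.58, 0.91 and -0.05. The tubulin medians were 0.29 with paclitaxel and -0.15, -0.45 and -0.23 with the others. For CDKN1A the ratio was -0.25 with paclitaxel and -1.62, 0.93 and 1.53 with the others. MALAT1 and NEAT1 were highest with paclitaxel among the 4, with NEAT1 at -2.66, -0.03 and -1.32 after the others. The remaining genes 2-fold or more higher with paclitaxel stood higher still with doxorubicin. PABPC1L was at 1.28 with paclitaxel, and at 2.22, 1.29 and 1.92 with doxorubicin, etoposide and MMS. GOLGA8A was at 1.12, and at 1.57, 0.47 and 0.39, and CHI3L1 at 1.07, and at 1.89, 0.73 and -2.41.

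**Figure D5:**
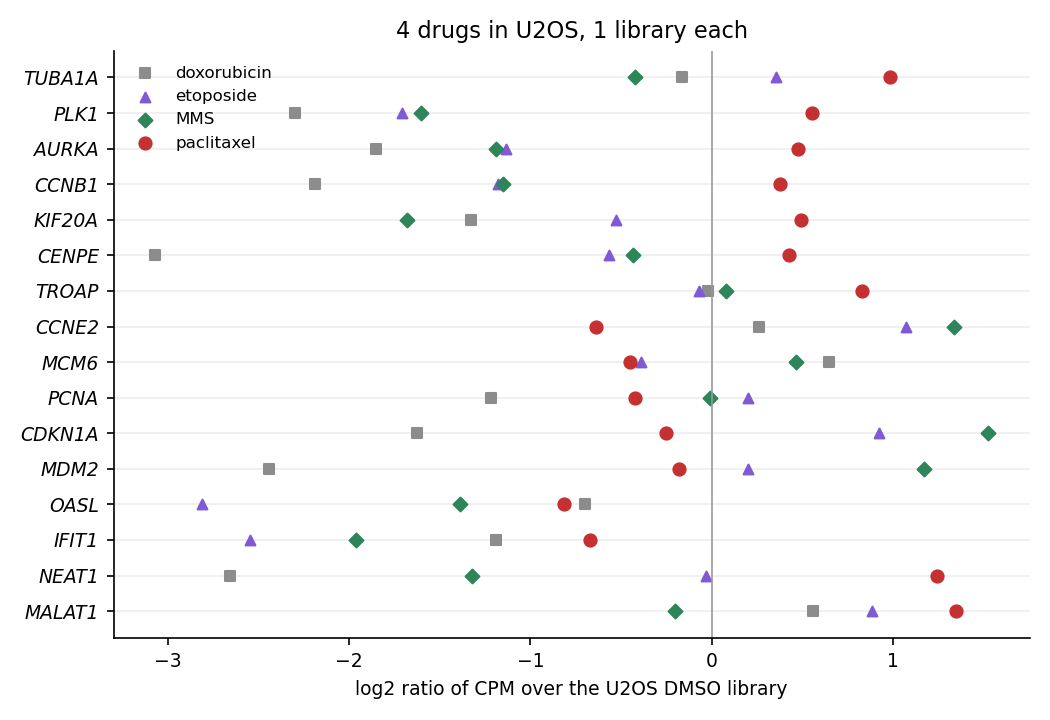
Log2 ratio of CPM over the U2OS DMSO library (x axis) for 16 genes after paclitaxel (red circles), doxorubicin (grey squares), etoposide (purple triangles) and MMS (green diamonds), 1 library each. PLK1, AURKA, CCNB1, KIF20A and CENPE lie above 0 with paclitaxel and below 0 with each other drug.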

How the data were processed

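Gene expression was measured by RNA-seq in 2 libraries of U2OS cells, with 9 other libraries of the series for scaling and reference. The authors deposited raw counts of reads for 23228 gene symbols. The 5 summary rows that close each table were left out of library sizes. Base calls came from CASAVA 1.8.2, alignment from TopHat2 2.0.8b and counting from HTSeq, and hg19 and mm9 are the builds named, per the submitters' processing notes. Annotation, read length and strand setting: not given in the sources used here. Where a gene overlaps an antisense partner, its count may therefore include that partner's reads. Depth was 18959126 and 22213736 counts.

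TMM factors were computed over all 11 libraries with edgeR 4.0.16 in R 4.3.3, which was used for scaling and not for a test. CPM, log2 ratios with 0.5 CPM added, exact Clopper-Pearson 95% intervals and list counts were computed in Python 3.11.15 with scipy 1.17.1. The intervals were tried on simulated Poisson counts, which hold counting error only. That trial checks the computation and cannot show how the intervals do with spread between libraries. Ratios of genes with few reads are shrunk by the added 0.5. PCR duplicates are not independent molecules, so intervals cover counting error only. Transcript length and GC came from the longest GENCODE transcript of a gene (98.3% of well counted genes matched), promoters from RefSeq. The 36 gene lists and the comparison were chosen with earlier results of these data known. None of 8 genes of mitochondrial DNA on one of these lists has a row in the tables. Genes named are the 15 highest and 15 lowest ratios leaving out antisense, small RNA and pseudogene entries and symbols that are only placeholders, every tubulin of at least 1 CPM, up to 6 members per list, genes past 1.5-fold the same way in both lines and a fixed set of markers. Further members, named as list exceptions or partners, were chosen after their values were seen. Alternatives were total-count and DESeq2 1.42.0 size factor scaling, other offsets, minimums and folds, and the other MDA-MB231 DMSO library. Chosen after seeing the data were a minimum on the mean CPM, centring on GC and length, and TMM over only the 2 libraries compared.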

Additional observations from a re-analysis of the deposited data

Results flagged for a closer look

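Reads that aligned outside annotated genes took 8.40% of the reads tabulated for U2OS with paclitaxel (exact 95% interval 8.39% to 8.41%) and 7.74% with DMSO (7.73% to 7.75%). The share lay above that of the control library in data outside the gene counts. In MDA-MB231 it was 8.25% with paclitaxel and 8.16% and 7.16% in the DMSO libraries, so vehicle libraries of that line lay further apart than the U2OS pair.

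AKR1C3, an aldo-keto reductase that metabolises steroids, had a log2 ratio of -0.34 in U2OS (420 to 397 reads, 17.3 CPM with paclitaxel) and 1.27 in MDA-MB231 (4.64 to 11.9 CPM). BMF, a proapoptotic BCL2 family gene released from the cytoskeleton, was at -0.37 in U2OS and 1.33 in MDA-MB231 (4.92 to 13.1 CPM). HIST1H2BD, a histone H2B gene, was at -0.43 and 0.39. Each was past the small step (25% higher, 20% lower) in opposite directions in the lines, with 1 library a side, and the difference was not tested. Of 9048 genes well counted in both lines, 18 were past that step in opposite directions and 112 in the same direction. These 3 are the named genes among the 18. Against MDA-MB231 DMSO replicate 2 BMF was at 0.78 and HIST1H2BD at 0.97, and AKR1C3 was higher still.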

How the results depend on the processing

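The counts of genes past a fold followed the threshold. In U2OS the 59 higher and 17 lower genes became 93 and 33 with a minimum of 5 CPM, 37 and 11 with 20 CPM, 381 and 159 with none, 348 and 283 at the small step, 5 and 0 at 2-fold, and 20 and 3 where the whole interval had to lie past 1.5-fold. In MDA-MB231 the 141 higher genes became 85 with 20 CPM, 463 with no minimum, 615 at the small step, 33 at 2-fold and 80 by the interval. The 28 lower genes became 43 with 5 CPM, 18 with 20 CPM, 140 with none, 339 at the small step, 0 at 2-fold and 9 by the interval. With DMSO replicate 2 as the control, without replicate 1, they became 651 and 490. The 590 genes apart between the DMSO libraries became 1649 with no minimum, 2279 at the small step, 113 at 2-fold and 285 by the interval. The share of higher genes among those past 1.5-fold in U2OS was 77.6%. Over alternatives at that fold it ran from 70.6% with no minimum to 87.0% by the interval, and it was 55.2% at the small step, and no named gene past that step changed sign. Of recomputed list medians 325 stayed within the order-statistic interval of the list median and 5 did not, and of gene ratios 1372 stayed within their counting interval and 32 did not. Depth limits genes under 10 CPM, and 1 library a side leaves no spread between cultures. No paired analysis was possible because each U2OS treatment has 1 library and no test was made.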

Other observations

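Genes of cholesterol and fatty acid synthesis, which SREBP factors control, lay slightly below their DMSO level in U2OS. Of 27 well counted genes 23 were below 0, 3 were lower past the small step and none higher, with a median of -0.21. SC4MOL (173 to 135 CPM, -0.36), ACAT2 (101 to 79.5 CPM, -0.34) and SQLE, the squalene epoxidase (232 to 184 CPM, -0.33), were lowest. The list median was 0.05 in MDA-MB231 and -0.05 against DMSO replicate 2 there. All 75 respiratory chain genes were well counted, 66 lay below 0 and 2 were lower past the small step (median -0.12), and 61 of 71 cytosolic ribosomal protein genes lay below 0 (median -0.06, or -0.02 with total-count scaling) with none past the small step.

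Stress and drug-handling lists are read beside the 3.46% of all genes higher and 2.81% lower past the small step. The integrated stress response list had 1 higher and 2 lower of 29, PSAT1 being lowest (-0.41) and NUPR1 highest (0.34). Of 23 ER chaperone genes 1 was lower, DNAJB9 (-0.40), of 23 heat shock genes BAG3 was higher (0.43) and HSPE1 lower (-0.44), and of 26 NRF2 targets 3 were lower, ME1 (-0.41), HMOX1 (41.7 to 32.2 CPM, -0.37) and AKR1C3. Among the drug transporters ABCB1, which pumps paclitaxel out of cells, had 82 and 93 reads (4.30 and 4.05 CPM, -0.07, interval -0.53 to 0.36), and 2 of the 8 well counted genes were past the small step, ABCG1 and ABCC10 (0.35). Of 25 glycolysis and hypoxia genes NDRG1 (0.52), SLC2A3 (0.48) and PFKFB4 (0.33) were higher. YAP target genes had a median of -0.04, with CTGF at 0.06 and CYR61 at 0.13 in U2OS and at -0.63 and -0.52 in MDA-MB231. The actin and SRF list had none of 19 past the small step. Of 38 very long genes 3 were higher, NAV2, DMD (0.37) and WWOX (0.35), and 1 lower, LPP (-0.42).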
